A study of Salmo salar with 9 samples.

Results

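The hypoxia-inducible factors and their regulators were followed in the head kidney, the main blood-forming and immune organ of fish, of Atlantic salmon fed seaweed. Members were contigs, that is cDNA sequences assembled de novo from the reads, whose description holds 1 of 6 names: Hypoxia-inducible factor 1-alpha, Endothelial PAS domain-containing protein 1, the name written out for the symbol EGLN, Von Hippel-Lindau, Vascular endothelial growth factor A and Hypoxia-inducible factor 1-alpha inhibitor. They were also selected on measured values, since their counts had to sum to at least 20 over all fish. This gave 32 of 87600 contigs: 10 for HIF-1-alpha, 12 for the EGLN hydroxylases, 2 for Von Hippel-Lindau (VHL), 4 for vascular endothelial growth factor A (VEGF-A) and 4 for the inhibitor of HIF-1-alpha (FIH). The name Endothelial PAS domain-containing protein 1 matched 0 contigs in the tables used here. The minimum of 20 removed none, since the matched contigs with the fewest counts summed to 48 and 57. The most-read summed to 5514, the median was 615.5, and 7 members had fewer than 100 counts.

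In vertebrates HIF-1-alpha is the oxygen-regulated subunit of a transcription factor, made all the time and destroyed all the time while oxygen is plentiful. The EGLN enzymes are prolyl hydroxylases that use oxygen to mark it, VHL is the part of a ubiquitin ligase that recognizes the mark, and FIH hydroxylates an asparagine that the factor needs to recruit its coactivators. When oxygen runs short the subunit persists, pairs with ARNT and switches on genes such as VEGF-A, the main growth signal for blood vessels, and EGLN3, which feeds back on the factor. In mammals bacterial lipopolysaccharide (LPS) also raises HIF-1-alpha in macrophages through NF-kappa-B. Much of this control acts on protein stability, which RNA counts do not measure.

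The SW1 diet held 10% of the brown seaweed Laminaria digitata, the SW2 diet held 10% of a commercial seaweed blend (Oceanfeed), and the fishmeal control diet (FMC) held none. Each diet was represented by 3 fish, 1 per tank, after 42 days of feeding. All 9 fish, controls included, had received 6 mg per kg of LPS and were killed 68 to 70 h after it. Diets were thus compared among challenged animals and no unchallenged fish were included. The 4 comparisons made were SW1 vs. FMC, SW2 vs. FMC, the mean of SW1 and SW2 against FMC (seaweed vs. FMC) and SW2 vs. SW1. The first 3 share the same FMC fish.

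Counts per fish summed to 8892018 to 12228633 in SW1, 9330126 to 11236432 in SW2 and 8259299 to 11904385 in FMC. SW1 fish 1 (133) and FMC fish 2 (165) stood apart on the first principal component, where the other fish lay between −78.1 and −1.69. SW2 fish 1 had 16.5% of its counts in a single contig, against 1.49 to 2.63% in the most-read contig of each other fish. Contigs of interrenal cells, the steroid-making cells of this organ, were read in all 9 fish for 15 of 15 contigs, those of neutrophils for 20 of 20 and those of macrophages for 22 of 22. Of the kidney markers, nephrin and podocin, of the filter, matched 0 contigs, and the 3 contigs of uromodulin, a tubule protein, summed to 103.9 to 166.3 CPM (counts per 1e6 of the scaled library) in SW1 fish, 66.8 to 93.9 CPM in SW2 fish and 46.3 to 77.3 CPM in FMC fish. SW1 thus lay wholly above FMC while SW2 overlapped FMC, and the part of tubule RNA in the members' levels was not tested.

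No member passed the test, an adjusted p under 0.05 with edgeR's quasi-likelihood test and Benjamini-Hochberg adjustment over all contigs tested. In SW1 vs. FMC 0 of 32 members passed, against 0.00343% of all contigs, and 1 member had an unadjusted p under 0.05 (3.12%), against 1.68% of all contigs. In SW2 vs. FMC 0 of 32 passed, against 0% of all contigs, while 6 members had an unadjusted p under 0.05 (18.8%), against 6.02%. All 6 were higher in SW2, where 2.39% of all contigs were higher at that p. Of the 6, 2 were of EGLN2 and 2 of EGLN3. Contigs of 1 name can be parts or copies of 1 gene, so these shares do not count independent genes. In seaweed vs. FMC 0 passed, against 0%, and 4 members had an unadjusted p under 0.05 (12.5%), against 3.37%. In SW2 vs. SW1 0 passed, against 0.00114%, and 2 members had an unadjusted p under 0.05 (6.25%), against 5.8%.

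DESeq2 also called 0 members in each comparison, where it called 28, 38, 21 and 34 of all contigs in the same order of comparisons. It gave no adjusted p to some members, so these could not be called. In SW1 vs. FMC and SW2 vs. FMC they included EGLN2 contigs 77945 and 77946 and VEGF-A contig 39995. By DESeq2 1, 2, 2 and 0 members had an unadjusted p under 0.05. In SW1 vs. FMC that was HIF-1-alpha contig 3007, which was lower, whereas by edgeR it was EGLN2 contig 77945, which was higher. The smallest adjusted p of any member by edgeR was 1.0 in SW1 vs. FMC, 0.816 in SW2 vs. FMC, 1.0 in seaweed vs. FMC and 0.86 in SW2 vs. SW1. The values that follow therefore describe these fish. Where a member is said to have a p under 0.05, that p is unadjusted, while the p printed beside a fold change is the adjusted one.

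The fish of 2 diets did not overlap in 0 of 32 members in SW1 vs. FMC, against 5.53% of all contigs. In SW2 vs. FMC they did not overlap in 9 members (28.1%), 8 higher and 1 lower in SW2, against 11.7%. In SW2 vs. SW1 they did not overlap in 7 members (21.9%), 6 higher and 1 lower in SW2, against 13.6%. The median log2 fold change of the members was 0.09 in SW1 vs. FMC, 0.25 in SW2 vs. FMC, 0.14 in seaweed vs. FMC and 0.14 in SW2 vs. SW1, beside medians of −0.015, 0.003, −0.016 and −0.006 over all contigs tested.

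**Figure D1:**
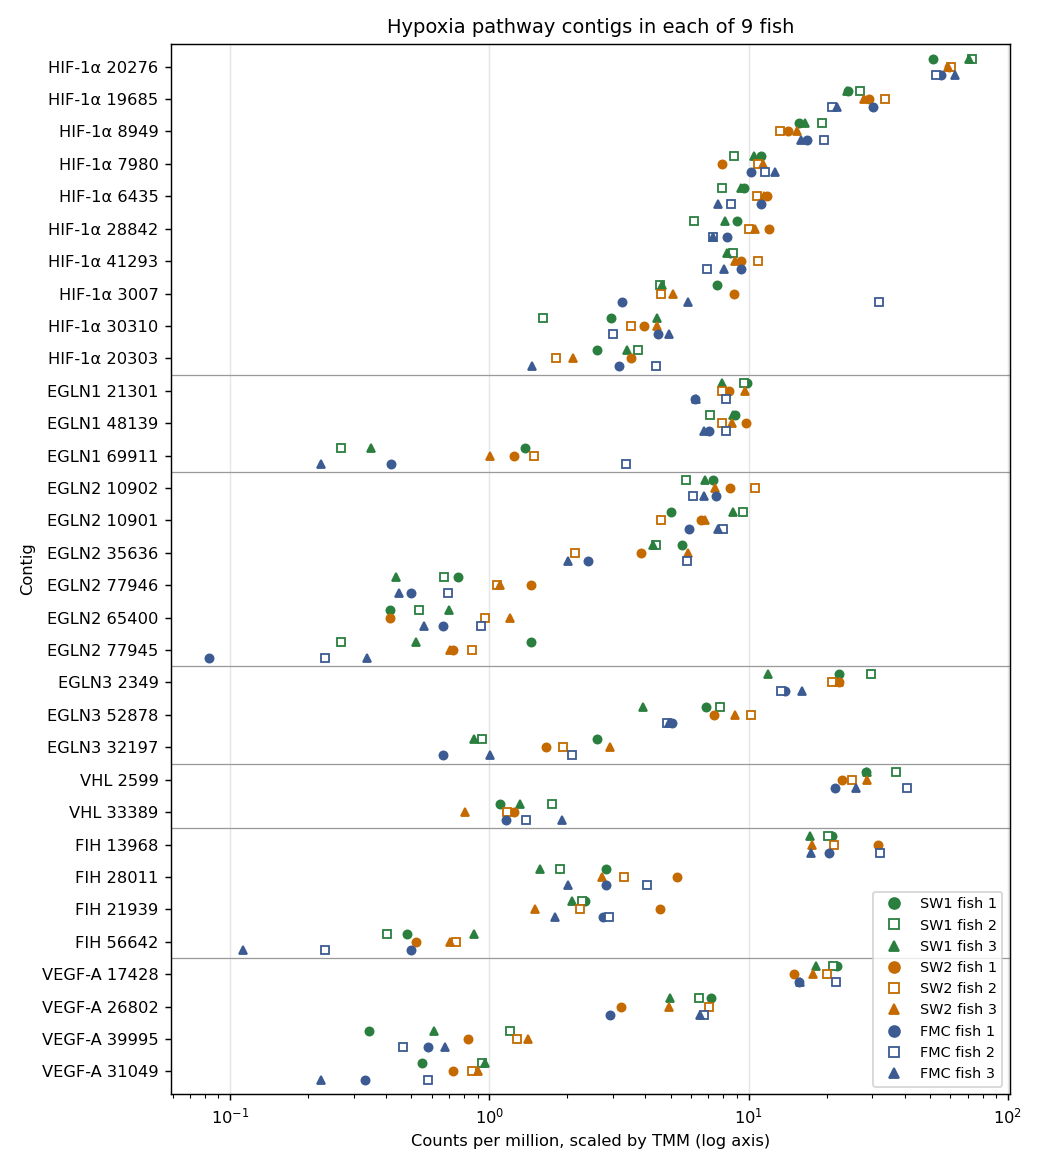
Level of each of the 32 contigs in each fish, in CPM (counts per 1e6 of the library scaled by TMM) on a log axis, with 3 symbols each for SW1, SW2 and FMC. HIF-1-alpha contig 20276 has its 9 fish within a 1.41-fold range, whereas FMC fish 2 lies at 32.01 CPM in contig 3007, with the other 8 fish between 3.24 and 8.82 CPM.

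The summed level of the 10 HIF-1-alpha members overlapped between diets. It was 142.9, 160.3 and 160.0 CPM in SW1 fish, 160.5, 159.9 and 156.1 CPM in SW2 fish, and 152.1, 166.9 and 148.2 CPM in FMC fish. The log2 ratio of means was −0.01 for SW1 over FMC and 0.03 for SW2 over FMC. Of the 10 contigs, 8 matched the HIF-1-alpha protein of rainbow trout best and 2 that of chicken. Contig lengths are not in the tables used here, so levels are compared between fish and not between contigs. In these bulk libraries fewer cells of a type and less RNA per cell cannot be told apart.

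HIF-1-alpha contig 20276, with 38.5% of the counts of the 10, had 51.5, 72.6 and 70.9 CPM in SW1 fish, 59.6, 60.6 and 59.0 CPM in SW2 fish, and 55.3, 52.7 and 62.4 CPM in FMC fish. The groups overlapped in both comparisons with FMC, and SW1 fish 1 was the lowest of the 9 while the other SW1 fish were the highest. Its log2 fold change was 0.07 (SE 0.2, adjusted p = 0.98, edgeR) in SW2 vs. FMC and 0.19 (SE 0.308, adjusted p = 1.0, edgeR) in SW1 vs. FMC. This contig varied least of all members, with a ratio of 1.41 between the highest and the lowest fish.

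HIF-1-alpha contig 19685 had 24.2, 27.0 and 24.0 CPM in SW1 fish, 29.3, 33.7 and 27.9 CPM in SW2 fish, and 30.2, 20.9 and 22.0 CPM in FMC fish. FMC fish 1 lay among the SW2 fish, so SW2 and FMC overlapped, whereas every SW2 fish lay above every SW1 fish. Between SW2 and FMC its log2 fold change was 0.31 (SE 0.23), beside 0.03 (SE 0.303) for SW1 vs. FMC and 0.27 (SE 0.249, adjusted p = 0.922, edgeR) in SW2 vs. SW1.

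HIF-1-alpha contig 28842 was the member of this name with a p under 0.05 in SW2 vs. FMC. It had 9.06, 6.15 and 8.1 CPM in SW1 fish, 12.04, 10.02 and 10.64 CPM in SW2 fish, and 8.23, 7.28 and 7.29 CPM in FMC fish. All 3 SW2 fish were above all 6 others. The log2 fold change was 0.52 (SE 0.226, adjusted p = 0.823, edgeR) in SW2 vs. FMC, 0.03 (SE 0.304) in SW1 vs. FMC and 0.48 (SE 0.253, adjusted p = 0.871, edgeR) in SW2 vs. SW1. Over 12 alternatives of the SW2 vs. FMC fit the value was 0.43 to 0.58, with a p under 0.05 in 5 of them.

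The contigs of this one name did not move together in SW2 fish. SW2 lay wholly above SW1 in 4 of the 10 contigs (19685, 6435, 28842 and 41293) and wholly below SW1 in contig 8949, against 13.6% of all contigs in either direction. Contig 8949 also lay wholly below FMC in SW2 fish. It had 15.7, 19.3 and 16.5 CPM in SW1 fish, 14.2, 13.2 and 15.4 CPM in SW2 fish, and 16.9, 19.5 and 15.9 CPM in FMC fish, with a log2 fold change of −0.29 (SE 0.217, adjusted p = 0.905, edgeR) in SW2 vs. FMC. The counting could split reads between near-identical copies, of which salmon have many after their genome duplication, so single contigs of a name are uncertain.

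In HIF-1-alpha contig 3007, best matched by the chicken protein, a single control fish set the level of its group. It had 7.55, 4.55 and 4.62 CPM in SW1 fish, 8.82, 4.59 and 5.12 CPM in SW2 fish, and 3.24, 32.01 and 5.83 CPM in FMC fish. FMC fish 2, with 277 counts, held 77.9% of the FMC sum and had 7.06 times the mean of the other FMC fish, of which FMC fish 1 lay below all seaweed fish and FMC fish 3 among them. The FMC mean was 13.7 CPM with that fish and 4.54 CPM without it.

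The log2 fold change of contig 3007 was −1.21 (SE 0.52, adjusted p = 1.0, edgeR) in seaweed vs. FMC, −1.29 (SE 0.674, adjusted p = 1.0, edgeR) in SW1 vs. FMC and −1.14 (SE 0.674, adjusted p = 0.874, edgeR) in SW2 vs. FMC. Without FMC fish 2 the same values were 0.39 (SE 0.352, adjusted p = 1.0, edgeR), 0.31 (SE 0.404) and 0.48 (SE 0.335), so the sign turned in each comparison. In SW2 vs. SW1, which does not use the level of FMC, it was 0.14 (SE 0.634). Without contig 3007 the summed level of the other HIF-1-alpha contigs was 135.4, 155.7 and 155.4 CPM in SW1 fish, 151.7, 155.4 and 151.0 CPM in SW2 fish, and 148.9, 134.9 and 142.4 CPM in FMC fish. In that sum SW2 lay wholly above FMC, with 151.0 against 148.9 CPM at the closest, while SW1 overlapped FMC. Contig 3007 was left out after its values were seen, and with it SW2 and FMC overlapped.

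FMC fish 2 also held far more red cell RNA than the others. The summed level of the 11 contigs of hemoglobin and erythroid 5-aminolevulinate synthase, 10 of which were read in all 9 fish, was 1809.5 to 6581.6 CPM in SW1 fish, 2064.3 to 3032.7 CPM in SW2 fish, and 1961.7, 28182.2 and 3484.3 CPM in FMC fish 1, 2 and 3. SW1 fish 1 had the next highest value. Red cells of fish keep their nucleus. The part of red cell RNA in the level of contig 3007 was not tested.

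FMC fish 2 moved the FMC mean by over 1.5 times upwards in 3 members and in 7.85% of all contigs, and SW1 fish 1 moved the SW1 mean so in 3 members and in 8.85% of all contigs. The other such FMC members were EGLN1 contig 69911, whose mean was 1.33 CPM with FMC fish 2 and 0.32 CPM without it, and EGLN2 contig 35636, with 3.4 and 2.21 CPM. FMC fish 1 moved the FMC mean by over 1.5 times in FIH contig 56642, where 6 counts in that fish stood against 2 and 1 in the other FMC fish. In SW1 fish 1 the members were EGLN1 contig 69911, EGLN2 contig 77945 and EGLN3 contig 32197, and SW1 fish 2 did so in VEGF-A contig 39995.

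**Figure D2:**
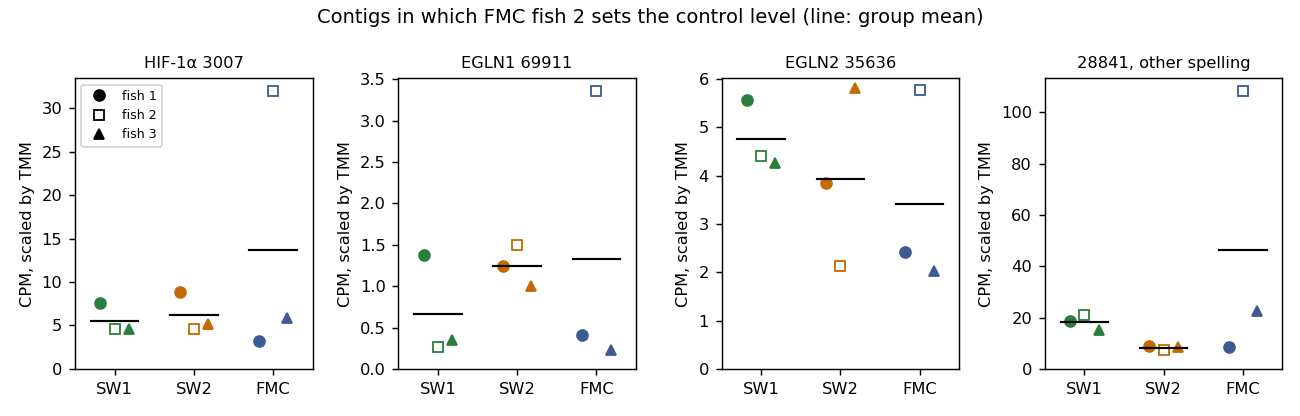
Level in CPM (scaled by TMM, axes from 0) of 3 members and of contig 28841, a HIF-1-alpha contig with another spelling, in each fish of SW1, SW2 and FMC, with a line at the group mean. FMC fish 2, the open blue square, lies at 32.0 CPM in contig 3007, 3.35 CPM in EGLN1 contig 69911, 5.78 CPM in EGLN2 contig 35636 and 108.2 CPM in contig 28841.

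A further 12 contigs are described as Hypoxia-inducible factor 1 alpha, without the hyphen before alpha, and were not members by the rule. The number of 6 of the 10 HIF-1-alpha members is next to that of such a contig, for example 28842 and 28841. Contig 28841 had 18.7, 21.1 and 15.2 CPM in SW1 fish, 8.93, 7.25 and 8.53 CPM in SW2 fish, and 8.39, 108.2 and 22.5 CPM in FMC fish. FMC fish 2 was again the highest, and without it the log2 fold change in seaweed vs. FMC was −0.33 (SE 0.316, adjusted p = 1.0, edgeR), beside −1.91 (SE 0.51, adjusted p = 1.0, edgeR) with it. For SW2 vs. FMC the values were −0.88 (SE 0.314, adjusted p = 0.468, edgeR) without that fish and −2.49 (SE 0.706, adjusted p = 0.816, edgeR) with it, both with an unadjusted p under 0.05. SW2 and FMC overlapped, since FMC fish 1 lay among the SW2 fish. Without FMC fish 2 only FMC fish 3 lay above them. SW2 lay wholly below SW1 in this contig, with a log2 fold change of −1.15 (SE 0.63, adjusted p = 0.878, edgeR). FMC fish 2 is in neither of these groups but enters the spread of that fit. Without it the value was −1.15 (SE 0.327, adjusted p = 0.554, edgeR), with an unadjusted p under 0.05.

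Contig 20302, of the same spelling, had 5.29, 24.3 and 20.6 CPM in SW1 fish, 13.2, 12.7 and 11.7 CPM in SW2 fish, and 22.6, 5.66 and 23.2 CPM in FMC fish. SW1 fish 1 and FMC fish 2, which stood apart over all contigs, were the lowest of the 9. FMC fish 2 thus ranked opposite to its place in contig 28841. The log2 fold change in SW2 vs. FMC was −0.46 (SE 0.415, adjusted p = 0.923, edgeR). Without FMC fish 2 it was −0.86 (SE 0.189, adjusted p = 0.166, edgeR), with an unadjusted p under 0.05. Contig 28841 had −0.88 without that fish, so both contigs were lower in SW2. The 12 contigs together had 59.8, 84.5 and 72.4 CPM in SW1 fish, 60.5, 55.4 and 50.5 CPM in SW2 fish, and 69.7, 146.7 and 83.8 CPM in FMC fish. All 22 contigs of either spelling summed to 202.7 to 244.8 CPM in SW1 fish, 206.6 to 221.0 CPM in SW2 fish, and 221.8, 313.6 and 232.0 CPM in FMC fish 1, 2 and 3. In both of these sums SW2 lay wholly below FMC, while SW1 overlapped FMC. Over all 22 contigs the closest values were 221.0 and 221.8 CPM. The direction was opposite to that of the members' sum without the contig set by a single control fish.

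Among the hydroxylases, EGLN3 held the member with the smallest p in SW2 vs. FMC. The 3 EGLN3 contigs summed to 31.8, 38.4 and 16.6 CPM in SW1 fish, 31.3, 33.2 and 34.0 CPM in SW2 fish, and 19.6, 20.2 and 22.1 CPM in FMC fish. All SW2 fish lay above all FMC fish, while the SW1 fish lay on both sides of them. The log2 ratio of means was 0.67 for SW2 over FMC and 0.49 for SW1 over FMC.

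EGLN3 contig 52878, best matched by the mouse protein, had 6.86, 7.75 and 3.92 CPM in SW1 fish, 7.37, 10.2 and 8.83 CPM in SW2 fish, and 5.07, 4.85 and 4.94 CPM in FMC fish. SW2 and FMC did not overlap, and the FMC fish spanned only 4.85 to 5.07 CPM, on 61, 42 and 44 counts. The log2 fold change was 0.83 (SE 0.244, adjusted p = 0.816, edgeR) in SW2 vs. FMC, 0.3 (SE 0.341) in SW1 vs. FMC and 0.57 (SE 0.263, adjusted p = 1.0, edgeR) in seaweed vs. FMC. In all 12 alternatives of the SW2 vs. FMC fit its log2 fold change was 0.71 to 0.94 with a p under 0.05. These alternatives share most of their fish, the close FMC fish among them.

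EGLN3 contig 2349, best matched by the human protein and the most-read contig of any EGLN enzyme, had 22.3, 29.7 and 11.8 CPM in SW1 fish, 22.32, 21.01 and 22.27 CPM in SW2 fish, and 13.9, 13.3 and 16.2 CPM in FMC fish. The SW2 fish were again all above the FMC fish, and SW1 fish 3 was the lowest of the 9. Its log2 fold change was 0.6 (SE 0.213, adjusted p = 0.816, edgeR) in SW2 vs. FMC and 0.55 (SE 0.362, adjusted p = 1.0, edgeR) in SW1 vs. FMC. The mean level in SW1 was 21.3 ± 8.96 CPM (SD, n = 3) and that in SW2 21.9 ± 0.745 CPM (SD, n = 3), against 14.4 ± 1.51 CPM (SD, n = 3) in FMC.

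The third EGLN3 contig, 32197, had 2.61, 0.936 and 0.871 CPM in SW1 fish, 1.66, 1.92 and 2.91 CPM in SW2 fish, and 0.665, 2.08 and 1.01 CPM in FMC fish, where FMC fish 2 overlapped SW2. Its log2 fold change in SW2 vs. FMC was 0.82 (SE 0.452, adjusted p = 0.858, edgeR), and 1.4 (SE 0.447, adjusted p = 0.39, edgeR) without FMC fish 2. The difference SW2 vs. SW1 was 0.04 (SE 0.306) for contig 2349, 0.52 (SE 0.293, adjusted p = 0.878, edgeR) for contig 52878 and 0.5 (SE 0.496) for contig 32197, none of which passed the test.

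Of the 9 marker lists of cell types, those of macrophages and chromaffin cells did not overlap between SW2 and FMC fish. The other lists, with those of B cells, T cells and neutrophils among them, overlapped. The summed level of the 22 macrophage contigs was 2914.5, 3617.6 and 3240.0 CPM in SW2 fish, against 2448.6, 2627.0 and 1888.1 CPM in FMC fish, with no overlap. That of the 4 chromaffin contigs, 2 of them read in all 9 fish, was 5.33 to 13.3 CPM in SW2 fish, against 1.41 to 5.2 CPM in FMC fish, with 0 contigs for chromogranin, secretogranin and dopamine beta-hydroxylase. The 43 endothelial contigs summed to 232.4 to 275.7 CPM in SW2 fish and to 211.0, 239.4 and 167.4 CPM in FMC fish 1, 2 and 3. Here only FMC fish 2 overlapped SW2. The part of these cells in the EGLN3 levels was not tested.

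**Figure D3:**
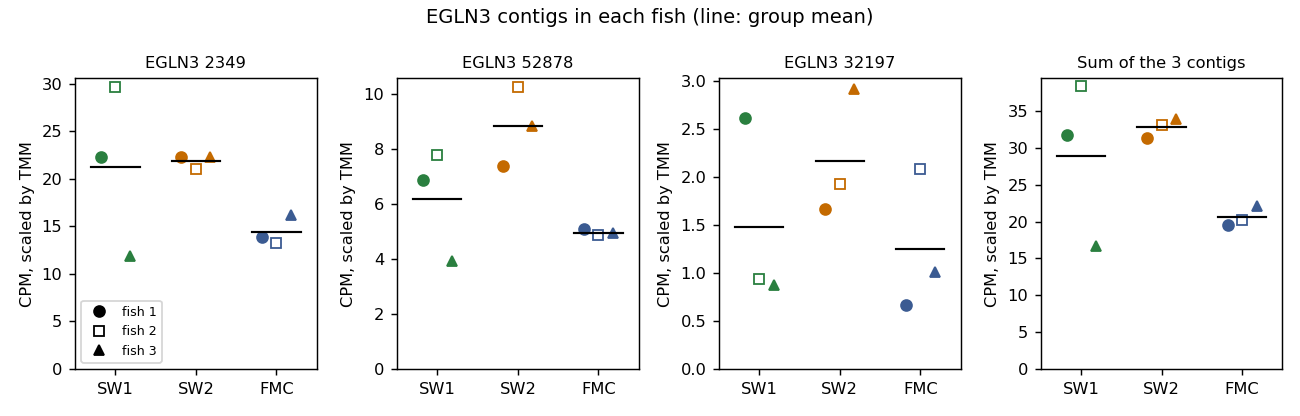
Level in CPM (scaled by TMM, axes from 0) of the 3 EGLN3 contigs and of their sum in each fish of SW1, SW2 and FMC, with a line at the group mean. In the sum the SW2 fish lie at 31.3 to 34.0 CPM and the FMC fish at 19.6 to 22.1 CPM, while SW1 fish spread between 16.6 and 38.4 CPM.

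EGLN1, in mammals the hydroxylase that sets the level of HIF-1-alpha at normal oxygen, had 3 contigs. The most-read, 21301, had 9.88, 9.63 and 7.93 CPM in SW1 fish, 8.41, 7.89 and 9.73 CPM in SW2 fish, and 6.23, 8.21 and 6.28 CPM in FMC fish. FMC fish 2 overlapped both seaweed groups, and the other FMC fish were the lowest of the 9. For this contig the log2 fold change was 0.4 (SE 0.303, adjusted p = 1.0, edgeR) in SW1 vs. FMC and 0.33 (SE 0.242, adjusted p = 0.901, edgeR) in SW2 vs. FMC. Contig 48139 had 8.86, 7.09 and 8.71 CPM in SW1 fish, 9.76, 7.89 and 8.63 CPM in SW2 fish, and 7.06, 8.21 and 6.73 CPM in FMC fish. Its groups overlapped, with a log2 fold change of 0.26 (SE 0.234) in SW2 vs. FMC and of 0.16 (SE 0.298) in SW1 vs. FMC.

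EGLN1 contig 69911, with 98 counts in all, had 1.37, 0.267 and 0.348 CPM in SW1 fish, 1.25, 1.49 and 1.0 CPM in SW2 fish, and 0.415, 3.35 and 0.224 CPM in FMC fish. FMC fish 2 was the highest and SW1 fish 1 the third highest, and the SW2 fish lay close together between the extremes. Between SW2 and FMC its log2 fold change was −0.04 (SE 0.757), and without FMC fish 2 it was 1.88 (SE 0.576, adjusted p = 0.366, edgeR). In seaweed vs. FMC it was −0.43 (SE 0.678) with that fish and 1.49 (SE 0.679, adjusted p = 1.0, edgeR) without it.

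EGLN2 had 6 contigs, 3 of them with fewer than 100 counts. The summed level was 20.5, 21.1 and 21.4 CPM in SW1 fish, 21.5, 20.2 and 23.1 CPM in SW2 fish, and 17.03, 21.73 and 17.72 CPM in FMC fish. FMC fish 2 reached the seaweed fish and the other FMC fish lay below them. The most-read EGLN2 contig, 10902, had 7.28, 5.75 and 6.79 CPM in SW1 fish, 8.51, 10.56 and 7.42 CPM in SW2 fish, and 7.48, 6.13 and 6.73 CPM in FMC fish. Contig 10901 had 5.01, 9.49 and 8.71 CPM in SW1 fish, 6.54, 4.59 and 6.82 CPM in SW2 fish, and 5.9, 7.97 and 7.63 CPM in FMC fish. Both overlapped between each seaweed diet and FMC. Contig 10902 had a log2 fold change of 0.38 (SE 0.245, adjusted p = 0.89, edgeR) in SW2 vs. FMC and −0.04 (SE 0.3) in SW1 vs. FMC, and contig 10901 had −0.25 (SE 0.264) and 0.1 (SE 0.344) in the same comparisons.

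EGLN2 contig 77945 had the largest log2 fold changes of all members in both comparisons with FMC, on 57 counts in all. It had 21, 2 and 6 counts in SW1 fish, 7, 8 and 7 counts in SW2 fish, and 1, 2 and 3 counts in FMC fish. SW2 and FMC did not overlap, whereas SW1 fish 2 overlapped FMC. The log2 fold change was 1.87 (SE 0.783, adjusted p = 1.0, edgeR) in SW1 vs. FMC, 1.82 (SE 0.616, adjusted p = 0.816, edgeR) in SW2 vs. FMC and 1.86 (SE 0.654, adjusted p = 1.0, edgeR) in seaweed vs. FMC. In SW1 vs. FMC the value was 0.96 (SE 0.867) without SW1 fish 1 alone and 1.96 (SE 0.914) without FMC fish 2 alone. Leaving out SW1 fish 1 and FMC fish 2 together gave 1.05 (SE 1.01, adjusted p = 0.998, edgeR) in SW1 vs. FMC, and 1.48 (SE 0.745, adjusted p = 1.0, edgeR) in seaweed vs. FMC.

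EGLN2 contig 77946, whose number follows on that of 77945, had 11, 5 and 5 counts in SW1 fish, 14, 10 and 11 counts in SW2 fish, and 6, 6 and 4 counts in FMC fish. After scaling, the SW2 fish (1.07 to 1.45 CPM) lay above all SW1 fish (0.436 to 0.755 CPM) and all FMC fish (0.449 to 0.693 CPM). For it the log2 fold change was 1.13 (SE 0.441, adjusted p = 0.822, edgeR) in SW2 vs. FMC and 0.94 (SE 0.439, adjusted p = 0.86, edgeR) in SW2 vs. SW1.

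VHL, which recognizes hydroxylated HIF-1-alpha, had 2 contigs and no p under 0.05. The one that holds 95.7% of the counts, 2599, had 28.5, 37.2 and 28.6 CPM in SW1 fish, 22.9, 25.1 and 28.7 CPM in SW2 fish, and 21.6, 41.0 and 26.0 CPM in FMC fish. FMC fish 2 was the highest and FMC fish 1 the lowest of the 9. The fitted difference was −0.21 (SE 0.267) on the log2 scale in SW2 vs. FMC and 0.08 (SE 0.338) in SW1 vs. FMC. Contig 33389 had 1.1, 1.74 and 1.31 CPM in SW1 fish, 1.25, 1.17 and 0.803 CPM in SW2 fish, and 1.16, 1.39 and 1.91 CPM in FMC fish, which overlapped.

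FIH, the asparaginyl hydroxylase, had 4 contigs that all matched the zebrafish protein best. Another 2 contigs of this protein, 56641 and 58442, were spelled without the hyphen and were not members by the rule. They had 110 and 149 counts in all, with log2 fold changes of −0.13 (SE 0.387) and −0.25 (SE 0.421) in SW2 vs. FMC. Contig 13968, with 78.7% of the counts, had 20.9, 20.2 and 17.3 CPM in SW1 fish, 31.7, 21.4 and 17.6 CPM in SW2 fish, and 20.4, 32.1 and 17.5 CPM in FMC fish. SW2 fish 1 and FMC fish 2 were alike and high, so the groups overlapped, and the log2 fold change was 0.01 (SE 0.299) in SW2 vs. FMC and −0.27 (SE 0.328) in SW1 vs. FMC.

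FIH contig 28011 had 2.81, 1.87 and 1.57 CPM in SW1 fish, 5.29, 3.31 and 2.71 CPM in SW2 fish, and 2.82, 4.05 and 2.02 CPM in FMC fish. SW2 fish 1 was the highest, and SW2 fish 3 lay just below SW1 fish 1. The log2 fold change was 0.83 (SE 0.378, adjusted p = 0.86, edgeR) in SW2 vs. SW1. Over 15 alternatives the value was 0.52 to 1.14, with a p under 0.05 in 8 of them. Contig 21939 was also highest in SW2 fish 1, at 4.57 CPM, where the other 8 fish had 1.5 to 2.89 CPM. That is the library with 16.5% of its counts in a single contig, and the part of that contig in these levels was not tested.

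VEGF-A, the classical target of the factor, had 4 contigs matched to the zebrafish protein. The most-read, 17428, had 22.0, 21.1 and 18.3 CPM in SW1 fish, 14.9, 20.2 and 17.8 CPM in SW2 fish, and 15.7, 21.7 and 15.8 CPM in FMC fish. The groups overlapped throughout, and the log2 fold change was −0.01 (SE 0.238) in SW2 vs. FMC and 0.2 (SE 0.302) in SW1 vs. FMC. Contig 26802 had 7.14, 6.42 and 4.97 CPM in SW1 fish, 3.22, 7.04 and 4.92 CPM in SW2 fish, and 2.91, 6.7 and 6.51 CPM in FMC fish, which also overlapped.

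The 2 VEGF-A contigs with a p under 0.05 rested on few counts. Contig 39995 had 5, 9 and 7 counts in SW1 fish, 8, 12 and 14 counts in SW2 fish, and 7, 4 and 6 counts in FMC fish, and after scaling SW2 did not overlap FMC. Its log2 fold change was 1.01 (SE 0.448, adjusted p = 0.823, edgeR) in SW2 vs. FMC. Contig 31049 had 8, 7 and 11 counts in SW1 fish, 7, 8 and 9 counts in SW2 fish, and 4, 5 and 2 counts in FMC fish. Its log2 fold change was 1.09 (SE 0.474, adjusted p = 1.0, edgeR) in seaweed vs. FMC, with 5 of the 6 seaweed fish above every FMC fish. The sum over all 4 contigs was 24.8 to 30.1 CPM in SW1 fish, 19.7 to 29.3 CPM in SW2 fish and 19.5 to 29.5 CPM in FMC fish.

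**Figure D4:**
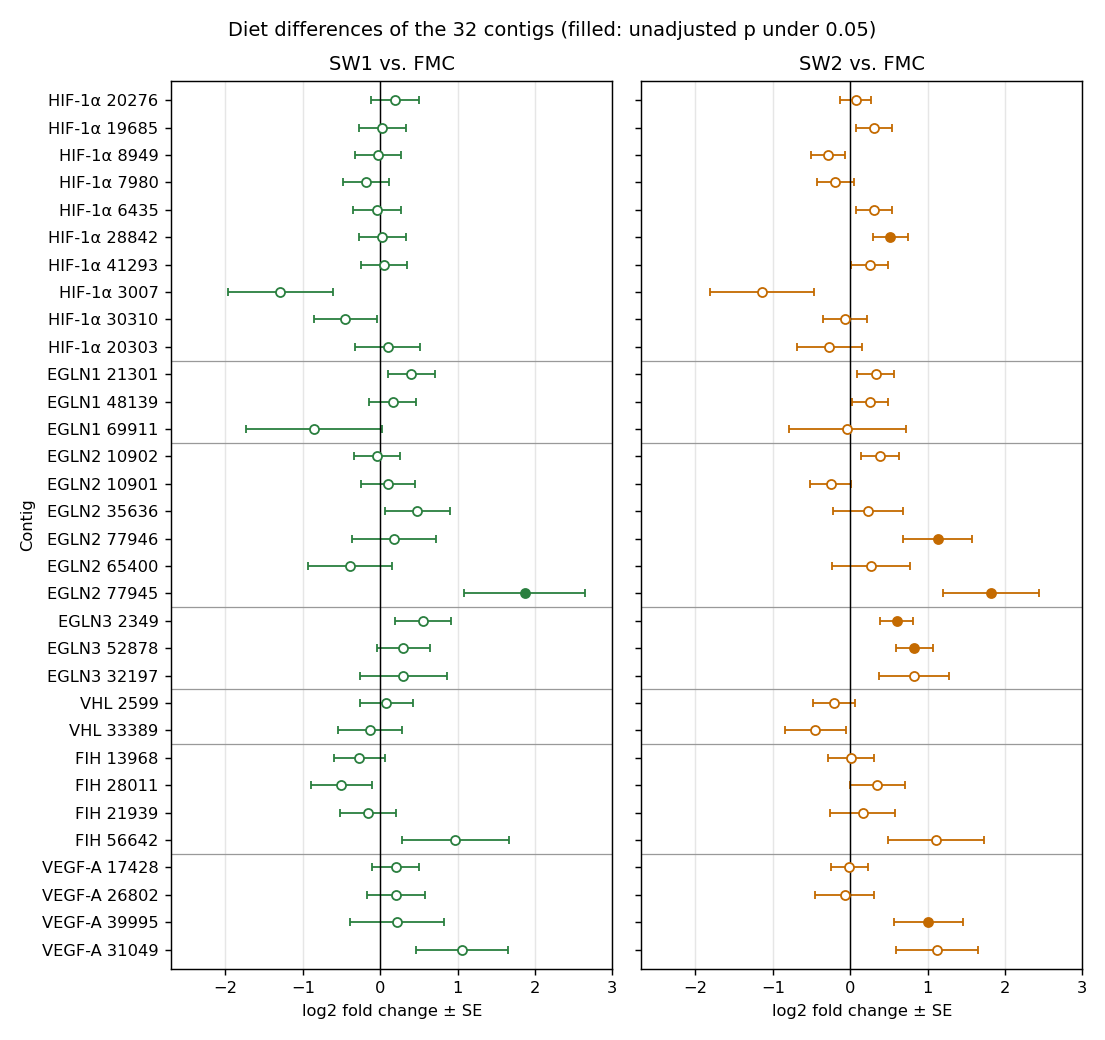
log2 fold change of each of the 32 contigs with its SE, for SW1 vs. FMC on the left and SW2 vs. FMC on the right, filled where the unadjusted p is under 0.05. In SW2 vs. FMC 6 filled points lie above 0, with 2 each in EGLN2 and EGLN3, and contig 3007 lies at −1.14.

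Over the members, 20 had a log2 fold change above 0 and 12 below 0 in SW1 vs. FMC, and 21 and 11 did in SW2 vs. FMC, where 48.3% and 50.3% of all contigs were above 0. These are counts of contigs, several of which share a name, and not of independent genes. Fish differed by a median of 2.48-fold between the highest and the lowest of the 9. Among the 18 members with 500 or more counts this ratio was 9.88 in contig 3007 and at most 2.61, in EGLN3 contig 52878, in the others. FMC fish 2 and SW2 fish 1 were each the highest of the 9 in 6 members (18.8%), against 16.997% and 8.0367% of all contigs.

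Other genes of the pathway were taken by name. The partners of HIF-1-alpha and the rest of the VHL ligase had 58 contigs, such as ARNT, cullin-2 and the p300 coactivator. In SW1 vs. FMC 0 were higher and 0 lower at p under 0.05, against 1.68% of all contigs. In SW2 vs. FMC 0 were higher and 1 lower (1.72%), against 6.02%. Their median log2 fold change was −0.17 and 0.06 in these comparisons. The most-read was contig 13991 of ARNT, the partner subunit, with 122.9, 109.5 and 110.8 CPM in SW1 fish, 97.7, 102.9 and 116.9 CPM in SW2 fish, and 109.1, 148.9 and 126.2 CPM in FMC fish. FMC fish 2 was the highest, and the log2 fold change was −0.27 (SE 0.211) in SW2 vs. FMC.

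Glycolysis and glucose transport, which the factor drives in mammals, had 153 contigs. In SW1 vs. FMC 1 was higher and 0 lower at p under 0.05 (0.65%), against 1.68% of all contigs. In SW2 vs. FMC 10 were higher and 6 lower (10.5%), against 6.02%. The most-read, glucose-6-phosphate isomerase contig 55, had 1384.6, 1973.1 and 1588.7 CPM in SW1 fish, 1489.7, 2084.4 and 1878.8 CPM in SW2 fish, and 1399.5, 1608.0 and 1291.0 CPM in FMC fish. The groups overlapped, with a log2 fold change of 0.34 (SE 0.207, adjusted p = 0.878, edgeR) in SW2 vs. FMC. The summed level of all 153 contigs was 5282.2 to 7570.4 CPM in SW1 fish, 7063.0 to 8115.3 CPM in SW2 fish and 5872.9 to 6497.8 CPM in FMC fish. In this sum SW2 lay wholly above FMC, while SW1 overlapped both other groups.

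Other known targets (73 contigs) had 1 higher and 1 lower in SW1 vs. FMC (2.74%), against 1.68% of all contigs. In SW2 vs. FMC 8 were higher and 4 lower (16.4%), against 6.02%. The most-read was contig 3495 of transferrin receptor protein 1, which takes up iron, with 83.1, 233.3 and 232.2 CPM in SW1 fish, 162.9, 759.3 and 380.2 CPM in SW2 fish, and 271.1, 74.8 and 142.5 CPM in FMC fish. SW2 fish 1 overlapped FMC, and the log2 fold change was 1.41 (SE 0.53, adjusted p = 0.816, edgeR) in SW2 vs. FMC. The names adrenomedullin and erythropoietin matched 0 contigs.

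The VEGF family other than VEGF-A, its receptors and the angiopoietins (51 contigs) had 0 higher and 0 lower in SW1 vs. FMC, against 1.68% of all contigs. In SW2 vs. FMC 7 of 50 tested were higher and 0 lower (14.0%), against 6.02% of all contigs in either direction and 2.39% higher. The median log2 fold change of this list was 0.31, beside 0.003 over all contigs. Its summed level was 148.8 to 226.0 CPM in SW1 fish, 191.0 to 206.0 CPM in SW2 fish and 132.7 to 180.1 CPM in FMC fish. SW2 thus lay wholly above FMC, whereas the sums of the partners and of the other known targets overlapped between SW2 and FMC. The names of VEGF receptor 2 and of the angiopoietin-1 receptor are in this list and in that of the endothelial markers. The part of endothelial cells in this sum was not tested. The most-read, contig 21006 of VEGF receptor 2, had 44.8, 28.1 and 36.4 CPM in SW1 fish, 36.4, 42.9 and 40.6 CPM in SW2 fish, and 37.8, 36.8 and 32.8 CPM in FMC fish, and its log2 fold change in SW2 vs. FMC was 0.16 (SE 0.205). No contig of the 4 lists had an adjusted p under 0.05 in any comparison by edgeR.

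In seaweed vs. FMC 0 were higher and 1 lower among the 58 partners (1.72%), 3 and 4 of 153 in glycolysis (4.58%), 5 and 3 of 73 among other targets (10.96%) and 2 and 0 of 51 in the VEGF family (3.92%), against 3.37% of all contigs. In SW2 vs. SW1 the counts were 3 and 1 (6.9%), 3 and 2 (3.27%), 5 and 3 (10.96%), and 3 and 0 (5.88%) in the same order of lists, against 5.8% of all contigs. The members' values here and those of the lists share the same fish.

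The contigs with the pattern most like that of HIF-1-alpha contig 20276 over the 9 fish, among 9772 contigs with a protein description and a mean of at least 10 CPM, were contig 11700 of sphingolipid desaturase DES1 (Pearson r = 0.965), contig 34492 of pre-mRNA-splicing factor 38B (r = 0.943) and contig 17220 of ankyrin repeat domain-containing protein 46 (r = 0.938). Those most like VEGF-A contig 17428 were contig 15433 of GLIPR1-like protein 1 (r = 0.929), contig 1216 of fibroleukin (r = 0.92) and contig 28698 of tissue factor (r = 0.916), which starts blood clotting. These r are the highest of many computed over 9 libraries that share their scaling, and describe these fish only.

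The direction of the members with a p under 0.05 was kept in all alternatives for every contig but 3007. The unadjusted p was 0.05 or more in at least 1 alternative for each of them except EGLN3 contig 52878 in SW2 vs. FMC. Against the S. salar cDNA sequences of NCBI, the reads counted for the 4 sequences with a member's name were 0 in every fish. Contigs named after such sequences were read, for example EGLN2 contig 10901 with 626 counts, so these zeros do not show absent RNA. Of 5 sequences spelled without the hyphen 3 had counts. The most-read of them had 294.4, 254.0 and 297.0 CPM in SW1 fish, 361.5, 400.6 and 349.9 CPM in SW2 fish, and 343.4, 249.0 and 279.4 CPM in FMC fish. All SW2 fish lay above all others, with a log2 fold change of 0.35 (SE 0.213, adjusted p = 0.898, edgeR) in SW2 vs. FMC. The other 2 had 0.19 (SE 0.308, adjusted p = 0.965, edgeR) and −1.49 (SE 0.796, adjusted p = 0.883, edgeR) in that comparison. The one at 0.19 overlapped between SW2 and FMC. The one at −1.49, from which contig 28841 takes its name, had 84 counts in all. It had 4.03, 0 and 5.64 CPM in SW1 fish, 4.18, 1.3 and 0 CPM in SW2 fish, and 5.81, 4.32 and 5.43 CPM in FMC fish. SW2 thus lay wholly below FMC, and FMC fish 2 was the lowest FMC fish, unlike in contig 28841.

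**Figure D5:**
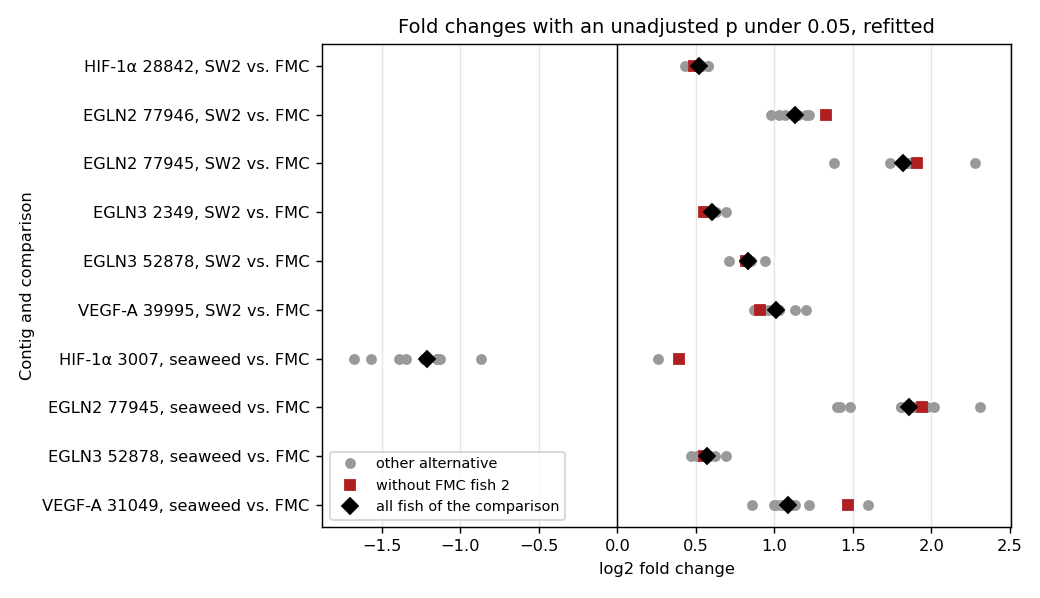
log2 fold changes of the 10 contig results with an unadjusted p under 0.05 against FMC in SW2 or in both seaweed diets, refitted under each alternative (grey), without FMC fish 2 (red square) and with all fish of the comparison (black diamond). Contig 3007 crosses 0 to 0.39 without FMC fish 2, while the other 9 stay above 0.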

How the data were processed

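The authors sequenced head kidney RNA of 9 salmon and aligned the reads of each fish with TopHat (TopHat2 2.0.5 in the submitters' processing notes) to contigs assembled de novo with CLC bio and named by BLAST, removed secondary alignments with SAMtools 0.1.18 and counted reads with HTSeq 0.5.3p9. The deposited values are whole raw counts of reads on each contig in each fish, neither normalized nor pooled, and a second set of deposited counts is against S. salar cDNA sequences of NCBI. Fold changes and p-values of DESeq stand beside the counts and were not used. Neither reference has coordinates, and the strand of the counting is not given in the sources used here.

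The members, lists and tests were chosen with earlier results of these data known. Descriptions were read with any run of the joining character _ as 1 space, which added 6 members to the 26 matched otherwise. After the descriptions were seen, 3 list patterns were corrected by name only, not by value.

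Contigs whose counts summed to 10 or more across the libraries being fitted were scaled by TMM and tested with the quasi-likelihood test of edgeR 4.0.16 (R 4.3.3), with Benjamini-Hochberg adjustment over all contigs tested. SW1 vs. FMC and SW2 vs. FMC used the 6 fish compared, and the other comparisons all 9 fish in 3 groups. The SE is the size of the log2 fold change divided by the square root of F. CPM are per 1e6 counts of the TMM-scaled library, and log2 CPM have a prior count of 2. P-values measure the spread between 3 fish per diet, each from its own tank.

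Values per fish are given for the 2 most-read contigs of each matched name (EGLN being 1 name) and for every member with an unadjusted p under 0.05 in any comparison, for the most-read contig of each list, and for further contigs chosen after their values were seen (48139, 10902, 10901, 8949, 32197, 35636, 69911, 28841 and 20302). The alternatives were DESeq2 1.42.0 and its size factors, other filters, a replicate block, all 9 fish in a fit, each fish left out, members with at least 100 counts and the NCBI reference. Leaving out 2 fish together and other readings of the names were added after seeing the data. The steps were tested on simulated counts. Sequences of the members were not used here.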

Additional observations from a re-analysis of the deposited data

How the results depend on the processing

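The number of members with an unadjusted p under 0.05 was small and moved with most choices. It was 1 in SW1 vs. FMC, where filterByExpr, the replicate block, members with at least 100 counts and joining characters read literally each gave 0, and leaving out SW1 fish 1 and FMC fish 2 together gave 2. It was 6 in SW2 vs. FMC, with 2 by DESeq2, 3 with all 9 fish in the fit and 3 among members with at least 100 counts. It was 4 in seaweed vs. FMC, with 2 by filterByExpr, DESeq2, the replicate block, members with at least 100 counts and without both fish. It was 2 in SW2 vs. SW1, with 1 under DESeq2 size factors, the replicate block, members with at least 100 counts and joining characters read literally, 0 by filterByExpr and DESeq2, and 6 without both fish.

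Leaving out each fish in turn gave 0 to 2, 3 to 8, 1 to 5 and 0 to 4 members in SW1 vs. FMC, SW2 vs. FMC, seaweed vs. FMC and SW2 vs. SW1. The 6 of SW2 vs. FMC became 3 without SW2 fish 1 or without FMC fish 3. The replicate numbers did not pair the fish (correlations −0.249 to 0.135), and the block left 4 members in SW2 vs. FMC.

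Contigs with an adjusted p under 0.05 numbered 3, 0, 0 and 1 of all tested in the same order of comparisons, and 28, 38, 21 and 34 by DESeq2. In SW1 vs. FMC there were 0 by filterByExpr and under the block, 1 with all 9 fish in the fit and 81 without both fish. In SW2 vs. FMC there were 10 under the block, and in SW2 vs. SW1 52 without both fish. Leaving out each fish gave 0 to 7, 0 to 7, 0 to 2 and 0 to 9.

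The log2 fold change of HIF-1-alpha contig 3007 in seaweed vs. FMC, −1.21, ranged between −1.68 and 0.39 over the fits that left out 1 fish, reversed to 0.39 without FMC fish 2 and to 0.26 without FMC fish 2 and SW1 fish 1 together. Of 170 refits of the 13 contig results with an unadjusted p under 0.05, 96 kept it, 72 kept only the direction and 2 reversed. The NCBI reference gave no value for members, since sequences of those names had 0 counts. The reason for these zeros was not tested. Depth limited the 7 members with fewer than 100 counts.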
